A study of Mus musculus with 6 samples.

Results

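The genes described here are 32 genes of the red cell program, namely the alpha-like and beta-like globins, the enzymes of heme synthesis and iron uptake, and red cell membrane, transport and regulatory proteins. They were taken by name from a list that was drawn up with earlier results of these data known, and 31 of them were found among the 47517 annotated gene symbols of the tables. Ahsp, which encodes a chaperone of alpha globin, was not analysed here. The values come from RNA sequencing of nascent hematopoietic cells of C57BL/6 mouse embryos at embryonic day 10.5. All embryos carried a knock-in of the fluorescent protein tdTomato at Hlf, a transcription factor gene of blood stem and progenitor cells. Every library was listed with the same collagenase treatment, at 0.125% for 1 hour at 37 °C, so its effect on the values was not tested. Sorted cells were positive for the Hlf-tdTomato reporter and the c-Kit receptor and lacked the leukocyte antigen CD45. They came either from the caudal region of the embryo (caudal cells, 3 libraries) or from the yolk sac (3 libraries), and 100 cells went into each library. The reporter selects cells with an active Hlf locus, so no cells outside that gate stand beside them, and nothing in the labels says whether replicates came from separate embryos or litters. P-values therefore measure the spread between these libraries, which may be technical.

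Red cells carry oxygen on hemoglobin, a tetramer of alpha-like and beta-like globin chains that each hold a heme group. In the mouse embryo the first wave of red cells arises in the yolk sac and matures in the circulation. These primitive cells use the embryonic chains zeta (Hba-x), epsilon-y (Hbb-y) and beta-h1 (Hbb-bh1) beside the alpha chains of Hba-a1 and Hba-a2, whereas definitive red cells use Hba-a1 and Hba-a2 with the adult beta chains of Hbb-bt and Hbb-bs. Heme is built from glycine and succinyl-CoA in a chain of enzymes, of which Alas2 is the erythroid first step and Fech the last, which inserts the iron.

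Values are given as TPM, the length-scaled abundance of the transcripts of a gene within a library, and a set of 3 values stands for replicates 1, 2 and 3 of a tissue in that order. Read depth is unknown, so no counting interval can be given, and genes near 0 TPM in libraries of 100 cells are imprecise. The number of genes at 1 TPM or above was 15644 to 16975 per library. Hlf was at 8.95 to 44.5 TPM, Kit at 42.2 to 159 TPM and Ptprc, which encodes CD45, at 2.31 to 4.72 TPM. The lowest value of each lay in yolk sac replicate 2. That library stood apart. Of the 20 yolk sac endoderm markers, genes of the absorptive epithelium of the yolk sac such as Afp, Apob and Ttr, all 20 were highest there, and their summed level was 15120 TPM against 882 TPM in yolk sac replicate 1 and 14.4 TPM in replicate 3. The caudal libraries were at 22.4 to 32.5 TPM, of which Trf made up 19.7 to 30.1 TPM. Under the rule used below for genes high in 1 library alone, 531 genes were high in yolk sac replicate 2 and 1 to 6 genes in each of the other libraries. Results are therefore given with and without it.

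Of the 3 genes that mark primitive red cells, Hba-x and Hbb-y were abundant in yolk sac replicate 2 and low in the other libraries, and Klf1, the erythroid transcription factor gene, was at 1.15 TPM there and at 0 to 0.717 TPM elsewhere. The markers of red cells were thus low in 5 of the 6 libraries, Hbb-y reaching 10.5 TPM in 1 of them, and the genes are called by their names below. Library makeup and level per cell cannot be told apart here, since in 100 pooled cells a few cells with many transcripts and many cells with few give the same value. The members were separated into classes by their values, as a description without a test. A gene was placed in the class of yolk sac replicate 2 if it reached 5 TPM there and its log2(TPM + 1) was at least 2 above the highest of the other 5 libraries. A gene was placed in the shared class if it was at 5 TPM or more in all 6 libraries. This gave 5 members in the class of yolk sac replicate 2, 8 shared members and 18 members that were low or mixed. Among the 19635 genes that reached 1 TPM in any library, 22 of which are members, 2.7% fell in the class of yolk sac replicate 2 and 41.1% were shared. The 5 members of the first class were Hba-x, Hba-a1, Hba-a2, Hbb-bh1 and Hbb-y. Nearest to the limits from inside was Hbb-y with a gap of 5.97, and from outside Fech with a gap of 1.96 and Slc4a1 with a gap of 2.41 but a level of 4.30 TPM.

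The stretches upstream of the RefSeq starts of 5 globin genes are shown because these genes fall on different sides of that division. They are the 120 bases before the RefSeq transcript start on GRCm38.p6, on the strand of the gene, with capitals for the motifs CACCC (the core of the sites that Klf1 and its relatives bind), CCAAT, and AGATAA or TGATAA (sites of GATA factors), searched on both strands, so that ATTGG stands for CCAAT on the other strand. Hba-x lies at chr11:32276480-32276599 (plus strand), Hba-a1 at chr11:32283552-32283671 (plus), Hbb-y at chr7:103853208-103853327 (minus), Hbb-bt at chr7:103813924-103814043 (minus) and Hbb-bs at chr7:103827929-103828048 (minus). The gene coordinates used in the rest of the text are from GENCODE, whose starts differ. By these, the stretches of Hba-x, Hba-a1 and Hbb-bs lie within the genes, and those of Hbb-bt and Hbb-y lie partly within them.
Hba-x: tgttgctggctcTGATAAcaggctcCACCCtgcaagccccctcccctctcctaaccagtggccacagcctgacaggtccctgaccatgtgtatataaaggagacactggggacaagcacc
Hba-a1: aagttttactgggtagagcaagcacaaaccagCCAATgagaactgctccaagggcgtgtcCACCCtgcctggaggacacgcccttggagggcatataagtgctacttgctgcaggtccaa
Hbb-y: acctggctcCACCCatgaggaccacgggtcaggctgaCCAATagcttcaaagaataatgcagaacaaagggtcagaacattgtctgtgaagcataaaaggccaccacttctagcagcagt
Hbb-bt: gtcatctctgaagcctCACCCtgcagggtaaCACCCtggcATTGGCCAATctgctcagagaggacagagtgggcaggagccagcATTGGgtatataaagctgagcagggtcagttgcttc
Hbb-bs: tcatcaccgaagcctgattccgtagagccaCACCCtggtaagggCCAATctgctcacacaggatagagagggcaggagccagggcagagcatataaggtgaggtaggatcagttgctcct

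All 5 stretches held CACCC, and 4 of them held CCAAT, Hba-x being the exception. TGATAA was found in the stretch of Hba-x alone. Over 250 bases upstream, TGATAA was also found for Hba-a1 and Hbb-y and AGATAA for Hbb-bs, thus on both sides of the division. The 247 aligned bases upstream of Hba-a1 and Hba-a2 were identical, so Hba-a2 is not printed. RefSeq windows were found for 24 of the 32 members, and none for Hbb-bh1, Fech, Slc25a37, Slc4a1, Ank1, Car1, Car2 and Ahsp. Over the 250 bases upstream of all 32851 RefSeq starts, CACCC was found in 52.0%, CCAAT in 33.8%, and AGATAA or TGATAA in 16.6%. Over the 33 starts of the 24 members the shares were 69.7%, 51.5% and 45.5%. A match is a description of the letters and not evidence of a bound site.

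Embryonic alpha-like globin and the alpha chains were abundant in yolk sac replicate 2 and near 0 in the other 5 libraries. Hba-x, the zeta chain gene (chromosome 11, 32276400 to 32278116, GRCm38), was at 0.365, 0.043 and 0.281 TPM in caudal replicates 1, 2 and 3 and at 1.28, 372 and 0.277 TPM in those of the yolk sac. Hba-a1 was listed at 0 in caudal replicates 1 and 2, at 0.227 TPM in caudal replicate 3, and at 0.168, 118 and 0.361 TPM in the yolk sac libraries. Hba-a2 followed with 0, 0 and 0.276 TPM and with 0.205, 131 and 0.400 TPM. For these 3 genes every other library lay far below yolk sac replicate 2. The longest coding transcripts of Hba-a1 and Hba-a2 are 99.8% identical over 538 aligned bases, so how their reads were divided is uncertain, and their sum is used below.

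The embryonic beta-like genes showed the same division, with more signal left in the other libraries for Hbb-y. Hbb-bh1, the beta-h1 chain gene, was at 0.677, 0.121 and 0.489 TPM in the caudal libraries and at 0.566, 245 and 0.641 TPM in the yolk sac libraries. Hbb-y, the epsilon-y chain gene (chromosome 7, 103851749 to 103853216), was at 10.5, 3.41 and 1.67 TPM in the caudal libraries and at 1.39, 722 and 3.01 TPM in the yolk sac libraries. It was thus the most abundant globin transcript of yolk sac replicate 2. In the other 5 libraries Hbb-y was above Hbb-bh1 by 2.46-fold to 28.1-fold per length. With Hbb-bh1 at only 0.121 to 0.677 TPM there, these ratios are imprecise. The ratio of Hbb-y to Hbb-bh1 was 2.95 in yolk sac replicate 2.

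The adult beta genes did not follow this division. Hbb-bt (chromosome 7, 103812524 to 103813996) was at 21.9, 6.34 and 5.17 TPM in caudal replicates 1, 2 and 3 and at 5.86, 10.2 and 16.3 TPM in the yolk sac libraries. Hbb-bs (103826534 to 103828096) was at 12.4, 3.13 and 2.78 TPM in the caudal and 4.03, 5.43 and 8.74 TPM in the yolk sac libraries. Caudal replicate 1 and yolk sac replicate 3 were highest for each gene, yolk sac replicate 2 came next, and the tissues overlapped. The ratio of Hbb-bt to Hbb-bs stayed between 1.46 and 2.02 in the 6 libraries. Their longest coding transcripts are 93.8% identical over 625 aligned bases, so how their reads were divided is uncertain as well.

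**Figure D1:**
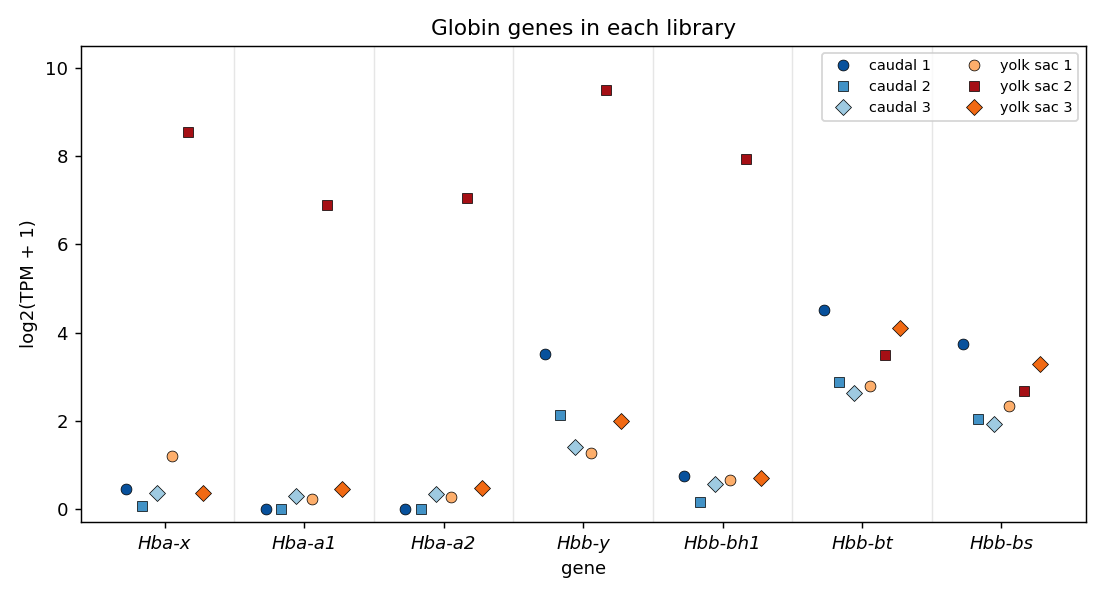
Level of the 7 globin genes in each of the 6 libraries, as log2(TPM + 1), with 1 point per library (blue for caudal, orange and red for yolk sac). Hba-x, Hba-a1, Hba-a2, Hbb-y and Hbb-bh1 have 1 high point, yolk sac replicate 2 at 118 to 722 TPM, while Hbb-bt and Hbb-bs spread over 2.78 to 21.9 TPM in all libraries.

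As a result the makeup of the globin signal differed between libraries. The 7 genes summed to 1604 TPM in yolk sac replicate 2, which was 0.261% of its annotated TPM, and to between 10.9 and 45.9 TPM in the other 5 libraries, or 0.00196% to 0.00717%. Adult genes made up 1.59% of the beta-like signal in yolk sac replicate 2 and 72.9% to 87.3% in the others. Beta-like transcripts were 1.58-fold as abundant as alpha-like ones in yolk sac replicate 2. In the other libraries alpha-like genes supplied 0.329% to 12.3% of the globin signal, with summed levels of 0.043 to 1.66 TPM against 10.1 to 45.5 TPM for beta-like genes. The 5 libraries therefore held adult beta transcripts with little or no transcript of an alpha-like partner.

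Transcripts of the yolk sac endoderm moved with the globins in yolk sac replicate 2 but not in the same proportion in replicate 1. The summed endoderm markers of yolk sac replicate 1 were 5.83% of those of replicate 2. The 5 globins of the class of yolk sac replicate 2 summed to 3.62 TPM in yolk sac replicate 1, which was 0.228% of the 1588 TPM in replicate 2. In the libraries whose endoderm sum was 0.0949% to 0.215% of that of yolk sac replicate 2, the 5 globins were at 0.185% to 0.728%. The sums of the markers of 3 other cell types were lowest in yolk sac replicate 2. Summed megakaryocyte markers, 10 genes of which 7 were lowest there, were at 105 TPM against 199 to 256 TPM elsewhere. Summed endothelial markers, 10 genes of which 9 were lowest there, were at 139 TPM against 260 to 608 TPM. Of all 16436 genes tested below, 44.9% were lowest in that library. Summed macrophage markers, 11 genes, were at 43.7 TPM against 54.3 to 70.03 TPM, with C1qa listed at 0 in all 6 libraries. Of the macrophage markers 2 were lowest in yolk sac replicate 2, Lyz2 and Cd68, and 2 were highest there, among them Csf1r at 8.17 TPM. The part of these cells in the globin values was not tested.

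**Figure D2:**
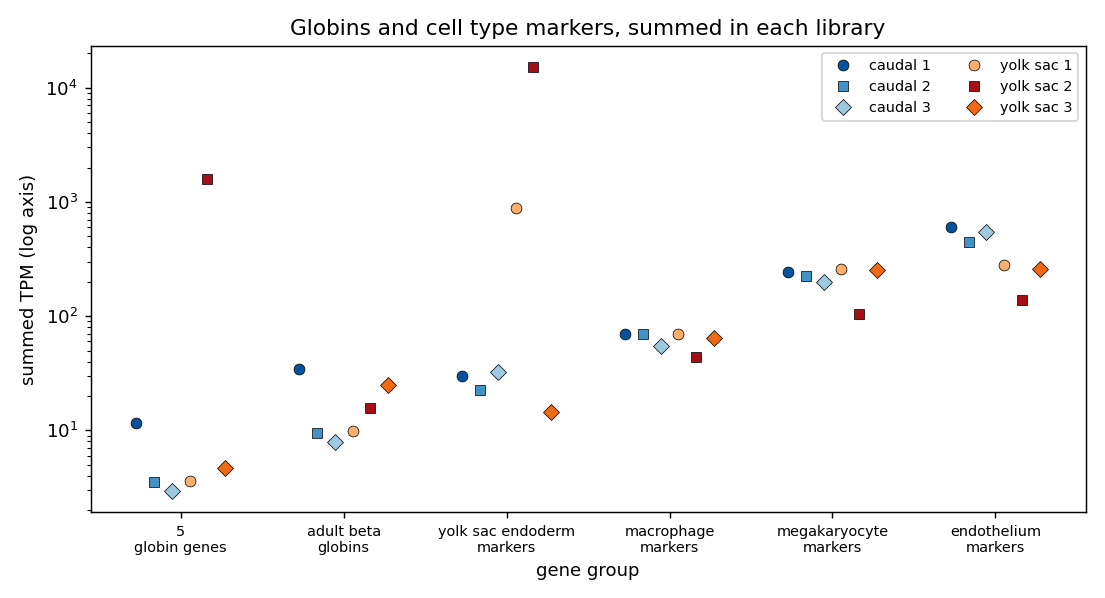
Summed TPM on a log axis of the 5 globins high in yolk sac replicate 2, of Hbb-bt and Hbb-bs, and of 4 lists of cell type markers, with 1 point per library. The 5 globins have 1 high library (1588 TPM in yolk sac replicate 2), the endoderm markers have a second one (882 TPM in yolk sac replicate 1), and each of the remaining groups spans less than 1 order of magnitude.

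The tissues were then compared gene by gene. The test was limma on log2(TPM + 1) over the 16436 genes that reached 1 TPM in 3 or more libraries, with Benjamini-Hochberg adjustment over all of them and a threshold of 0.05. A positive difference means a higher level in the caudal cells, and on this scale the change of a gene with a low level is understated. Of the 32 members, 15 reached the filter, and the rest were below it, apart from Ahsp, for which no values were analysed. Those not tested include 4 of the globins high in yolk sac replicate 2. The fifth, Hbb-y, was tested, with a difference of -1.89 (SE 1.89), but its class was set by the same values, so nothing is read from that.

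None of the 15 tested members passed, in either direction, with limma adjusted p between 0.0818 and 0.985. Over all tested genes 0.347% passed as higher in the caudal cells and 0.0365% as higher in the yolk sac. At an unadjusted p under 0.05 there were 3 members, Car2, Cpox and Aqp1, of 1583 genes in all. The values of Car2, Cpox and Tfrc did not overlap between the tissues, as was so for 15.6% of all tested genes. The median difference of the 15 members was -0.13, with 12 negative, against a median of 0.09 over all tested genes, of which 38.0% were negative. Without yolk sac replicate 2 the median was -0.10, with 9 negative, against 0.02 and 47.6% over all genes.

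Car2, which encodes the cytosolic carbonic anhydrase 2 of red cells and other tissues, was the member with the smallest p. It was at 38.4, 40.01 and 35.7 TPM in caudal replicates 1, 2 and 3 and at 118, 64.8 and 109 TPM in the yolk sac libraries. Every yolk sac library was above every caudal one, and yolk sac replicate 2 was the lowest of its tissue. The caudal mean was 38.05 ± 2.18 TPM and that of the yolk sac 97.2 ± 28.5 TPM (SD, n = 3 each), 2.44-fold higher on the log2(TPM + 1) scale. The difference of -1.29 (SE 0.24) did not pass limma's test (adjusted p = 0.0818). An exact two-sided permutation test gave p = 0.1, the smallest that 3 against 3 libraries allow. Any gene without overlap gets this value, so it adds nothing to the lack of overlap. Without yolk sac replicate 2 the difference was -1.55 (SE 0.15), or 2.93-fold, and Car2 passed (limma adjusted p = 0.0154). In that fit 0.0365% of all genes passed as higher in the yolk sac, 0.335% passed as higher in the caudal cells, and 24.9% did not overlap. Over its 15 alternatives the limma adjusted p of Car2 ranged from 0.0154 to 0.296, and it was higher in the yolk sac in all of them. Car2 lies on chromosome 3 (14886273 to 14900770). Its neighbour in the gene family, Car1, an abundant carbonic anhydrase of mature red cells, was at 0 to 0.094 TPM in all 6 libraries.

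The genes of iron uptake were expressed in all libraries and did not pass between tissues. Tfrc, the transferrin receptor gene, was at 49.4, 55.07 and 55.5 TPM in the caudal libraries and at 49.3, 38.9 and 43.9 TPM in the yolk sac libraries. Its lowest caudal and highest yolk sac values were almost the same, and the difference of 0.27 (SE 0.17) did not pass (limma adjusted p = 0.66). Slc25a37, which encodes mitoferrin, the carrier of iron into mitochondria, was at 16.3, 11.3 and 3.92 TPM in the caudal and at 15, 5.48 and 12.2 TPM in the yolk sac libraries. Caudal replicate 3 and yolk sac replicate 2 were its low libraries, and its means were 10.5 ± 6.20 TPM in the caudal and 10.9 ± 4.89 TPM in the yolk sac cells (SD, n = 3 each). Its exons overlap Gm27223 and Gm31748, which makes its values less certain. Blvrb, which encodes a biliverdin reductase, was low in every library, at 0.675 to 1.23 TPM.

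The heme synthesis enzymes were present in every library. Of the 7 among the members, 3 were highest in yolk sac replicate 2, beside 15.8% of all tested genes. The enzymes are given in the order of the pathway. Alas2, the erythroid aminolevulinate synthase gene on chromosome X, was at 4.68, 3.47 and 2.60 TPM in caudal replicates 1, 2 and 3 and at 2.42, 11.1 and 1.56 TPM in the yolk sac libraries. All caudal libraries lay between yolk sac replicate 2 and the other yolk sac libraries. Its difference was -0.07 (SE 0.54) with all libraries and 0.61 (SE 0.28) without yolk sac replicate 2, so that its direction rests on that library. Neither fit passed, and its limma adjusted p over 14 alternatives was between 0.59 and 0.999. Its exons overlap Apex2 and Mir3620.

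The middle enzymes did not differ between tissues beyond the spread of their libraries. Alad, which joins a pair of aminolevulinate molecules, was at 11.04 to 19.9 TPM in the caudal and 13.3 to 18.4 TPM in the yolk sac cells. Uros, the uroporphyrinogen III synthase gene, was at 1.87, 1.70 and 1.36 TPM in the caudal libraries and at 7.15, 2.45 and 1.28 TPM in the yolk sac libraries. Its high value was in yolk sac replicate 1, unlike that of any other enzyme of this set except Urod. Urod, the uroporphyrinogen decarboxylase gene, was at 12.8 to 16.4 TPM in the caudal and 12.3 to 17.6 TPM in the yolk sac cells. The limma adjusted p of these genes was 0.877 for Alad, 0.711 for Uros and 0.971 for Urod.

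Of the last 3 enzymes, Cpox and Fech were highest in yolk sac replicate 2 and Ppox was not. Cpox, the coproporphyrinogen oxidase gene, was at 9.18, 7.99 and 7.78 TPM in the caudal libraries and at 12.9, 28.8 and 11.2 TPM in the yolk sac libraries. Every yolk sac value was above every caudal one, with a difference of -0.88 (SE 0.34), and this did not pass (limma adjusted p = 0.461). It was -0.48 (SE 0.20) without yolk sac replicate 2, and over its 15 alternatives the limma adjusted p was at least 0.325. Its exons overlap Gpr15. Ppox, the protoporphyrinogen oxidase gene, whose exons overlap B4galt3, was at 5.28 to 10.9 TPM in the caudal and 5.11 to 7.75 TPM in the yolk sac cells. Fech, the ferrochelatase gene, was at 7.36, 5.17 and 5.78 TPM in the caudal libraries and at 7.66, 32.8 and 6.61 TPM in the yolk sac libraries. Apart from yolk sac replicate 2 its values overlapped, and its difference was -0.89 (SE 0.52, limma adjusted p = 0.646) with that library and -0.21 (SE 0.23) without it.

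**Figure D3:**
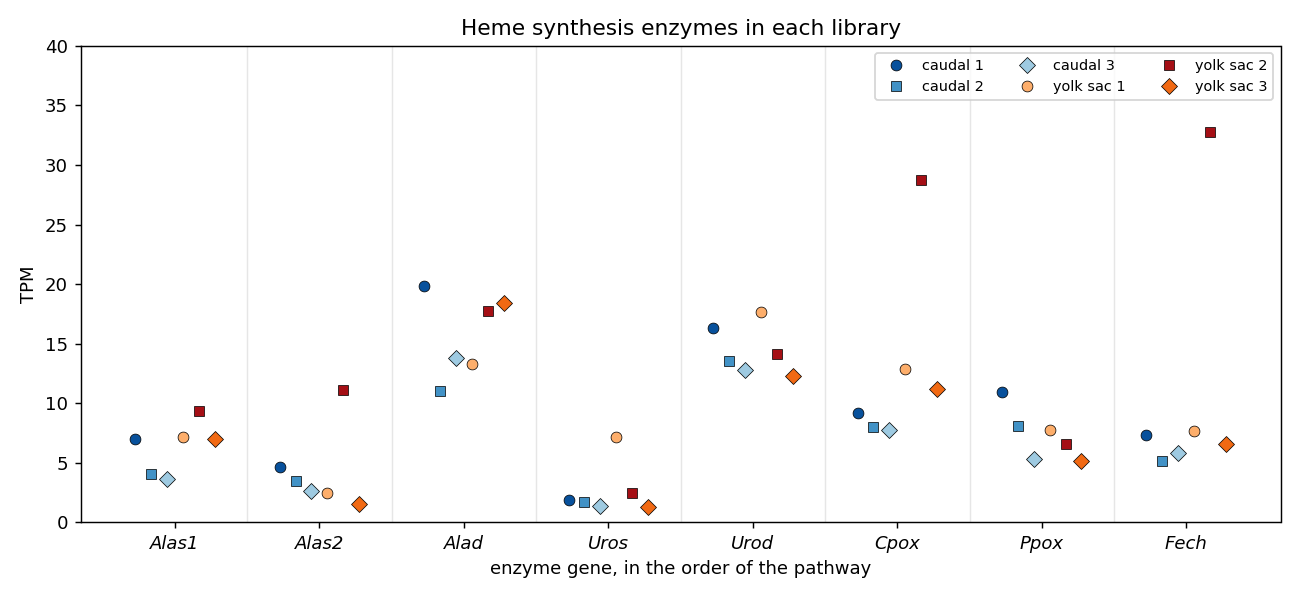
TPM of 8 enzyme genes of heme synthesis in pathway order, with 1 point per library. Cpox and Fech have a single high library, yolk sac replicate 2 at 28.8 and 32.8 TPM, and Alas2 has the same library on top at 11.1 TPM, while Uros is highest in yolk sac replicate 1.

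Alas1, the housekeeping first step of the pathway, is no member and was added to the plot after its values were seen. It had means of 4.88 ± 1.86 TPM in the caudal and 7.85 ± 1.31 TPM in the yolk sac cells (SD, n = 3 each), above Alas2 per length in 5 of the 6 libraries.

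Other genes of heme synthesis and iron handling showed no passing difference. Of 30 such genes outside the member list, all 30 were tested and 0 passed, with 24 negative and a median difference of -0.27 against 0.09 for all genes. In yolk sac replicate 2, 16 of the 30 were highest, a share of 53.3% beside 15.8% of all tested genes. Those with the smallest p were Hebp1, Alas1, Blvra and Glrx5. Hebp1, a heme-binding protein gene, was at 1.24, 0.96 and 0.56 TPM in the caudal and at 5.03, 25.2 and 3.81 TPM in the yolk sac libraries, with no overlap (limma adjusted p = 0.229). Blvra, a biliverdin reductase gene, was at 2.45, 4.37 and 1.53 TPM against 10.6, 8.36 and 2.70 TPM (limma adjusted p = 0.534). Glrx5, an iron-sulfur cluster assembly gene, had means of 70.6 ± 10.2 and 94.2 ± 15 TPM (SD, n = 3 each, limma adjusted p = 0.539). Without yolk sac replicate 2 the list had 22 negative genes and a median of -0.12 against 0.02. The endoderm sum of yolk sac replicate 2, 15120 TPM, stands beside these values, and its part in them was not tested.

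Most of the red cell membrane genes among the members were under 1 TPM in all libraries. Slc4a1, which encodes band 3, the anion exchanger of the red cell, was at 4.30 TPM in yolk sac replicate 2 and listed at 0 in the other 5. The cytoskeletal genes Ank1 (ankyrin), Sptb (beta spectrin) and Add2 (beta adducin) had their highest values in yolk sac replicate 2, at 0.232, 0.993 and 0.078 TPM. In the other libraries Ank1 reached 0.052 TPM, Sptb 0.726 TPM and Add2 0.017 TPM. The blood group genes Ermap, Rhag and Rhd were also highest in yolk sac replicate 2, at 0.828, 0.994 and 0.664 TPM, with up to 0.205, 0.404 and 0.249 TPM elsewhere. Icam4, an adhesion molecule gene of red cells, was not highest there, with 0.246 TPM in yolk sac replicate 2 and 0.219 to 0.665 TPM in the others. Of all tested genes, a set without these low members, 15.8% were highest in that library. Exons of Ank1, Sptb, Add2 and Icam4 overlap Gm15816, Plekhg3, Gm44089 and Gm47079, which makes these values near 0 less certain still. In all 9 members stayed under 1 TPM in every library, namely Ank1, Sptb, Add2, Ermap, Rhag, Rhd, Icam4, Car1 and Trim10.

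Aqp1, the water channel gene of red cells and endothelium, was above 1 TPM in every library. It was at 6.43, 5.23 and 7.08 TPM in the caudal libraries and at 5.26, 1.19 and 3.39 TPM in the yolk sac libraries. Yolk sac replicate 2 was the lowest, as it was for 44.9% of all tested genes and for 9 of 10 endothelial markers. The part of endothelial cells in the Aqp1 values was not tested. Yolk sac replicate 1 fell within the caudal range. The difference of 0.88 (SE 0.38) did not pass (limma adjusted p = 0.518, and 0.321 to 0.814 over 14 alternatives). Without yolk sac replicate 2 it was 0.46 (SE 0.25).

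**Figure D4:**
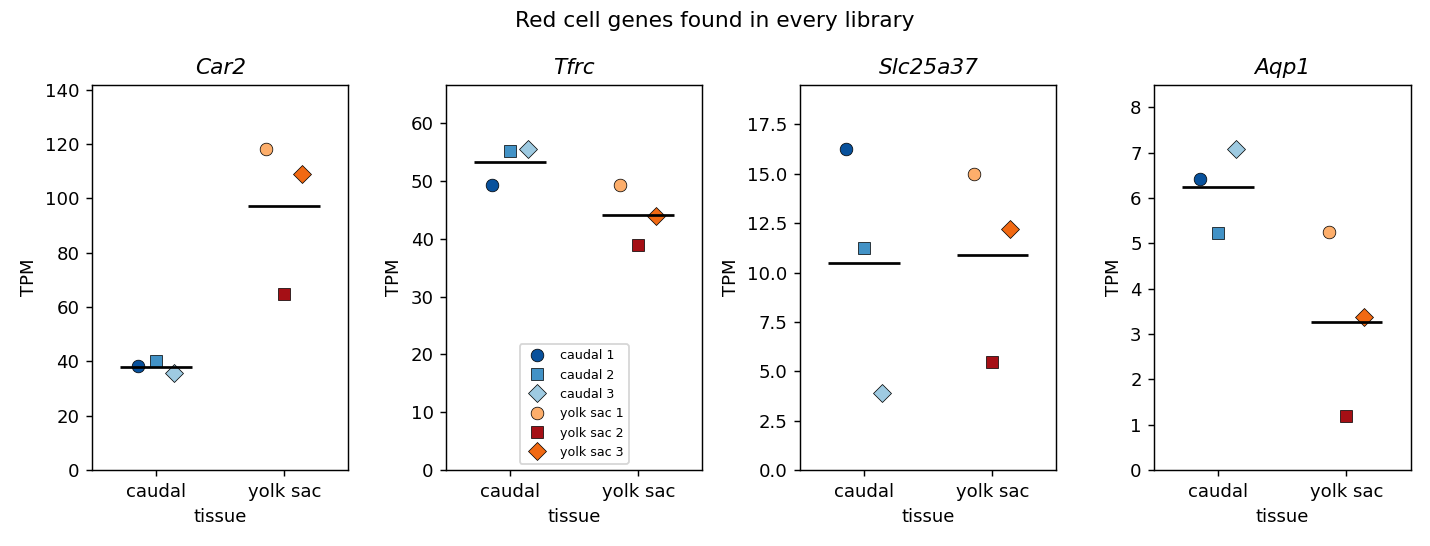
TPM of Car2, Tfrc, Slc25a37 and Aqp1 by tissue, with 1 point per library and a line at the mean of 3 libraries. Car2 is at 35.7 to 40.01 TPM in the caudal and 64.8 to 118 TPM in the yolk sac libraries, while the tissue ranges of Slc25a37 and Aqp1 overlap.

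Among 18 further red cell membrane genes 11 were tested and 0 passed, with 8 positive and a median difference of 0.17 with all libraries, and with 7 positive and a median of 0.10 without yolk sac replicate 2. Add1 (alpha adducin) was at 63.1, 58.1 and 57.2 TPM in the caudal and at 14.8, 31.2 and 38.6 TPM in the yolk sac libraries, without overlap (limma adjusted p = 0.269). Add3 (gamma adducin) was at 3.64, 4.40 and 7.25 TPM against 17.1, 5.12 and 14.5 TPM (limma adjusted p = 0.507). With Add2 under 0.1 TPM in every library, the adducin transcripts of these cells were those of Add1 and Add3. Mpp1, a membrane scaffold gene, was at 10.5, 9.23 and 3.61 TPM against 13.1, 45.0 and 12.1 TPM (limma adjusted p = 0.477). Its difference was -1.32 with all libraries and -0.74 without yolk sac replicate 2. Gypc, a glycophorin gene, had means of 53.5 ± 10.4 and 40.8 ± 15.3 TPM (SD, n = 3 each, limma adjusted p = 0.703).

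Of the regulators, Sox6 alone reached the filter. Sox6, which encodes a repressor of the embryonic globin Hbb-y in definitive red cells, was at 3.21, 2.79 and 2.19 TPM in the caudal and at 1.59, 7.35 and 1.60 TPM in the yolk sac libraries. As with Alas2, the caudal libraries lay between yolk sac replicate 2 and the other yolk sac libraries. Its difference was -0.05 (SE 0.45) with all libraries and 0.52 (SE 0.23) without that library, and its limma adjusted p over 14 alternatives was between 0.575 and 0.999. Sox6 and Hbb-y were thus each highest in the same library. Klf1 was at 0.717, 0.262 and 0 TPM in the caudal and at 0.046, 1.15 and 0.12 TPM in the yolk sac libraries. Trim10, a ubiquitin ligase gene of terminal red cell maturation, was at 0.559 TPM in yolk sac replicate 2 and at most 0.023 TPM elsewhere.

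Regulator genes shared by erythroid and early progenitor cells, among them transcription factor genes and the receptor gene Epor, were detected in all libraries. None of 20 such regulators passed, with 16 positive and a median difference of 0.24 with all libraries, and with 10 positive and a median of 0.03 without yolk sac replicate 2. In that library 14 of the 20 were at their lowest, a share of 70.0% beside 44.9% of all tested genes. The regulators with the smallest p were E2f2, Klf3, Gata2 and Bcl11a. Gata2, a factor of stem and progenitor cells, was at 39.3, 42.7 and 33.6 TPM in the caudal and at 28.6, 12.9 and 30.9 TPM in the yolk sac libraries (limma adjusted p = 0.513). Bcl11a, a silencer of embryonic and fetal globins, was at 35.2, 41.4 and 34.2 TPM against 27.2, 12.9 and 30.9 TPM (limma adjusted p = 0.524). E2f2 and Klf3 had means of 4.69 against 2.34 TPM and 14.3 against 9.21 TPM. All 4 had no overlap between tissues and were the only ones of the 20 without it, beside 15.6% of all tested genes. As they were taken by smallest p, nothing is read from this. Within the yolk sac, replicate 2 was lowest for E2f2, Gata2 and Bcl11a. The Epor transcript, which encodes the erythropoietin receptor, was at 0.70 to 2.13 TPM in the 6 libraries and was picked out after its values were seen.

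Genes of late red cell maturation, 13 in the list and all tested, also gave no passing difference, with 9 negative and a median of -0.31 with all libraries, and with 10 negative and a median of -0.09 without yolk sac replicate 2. The smallest p belonged to Prdx2, an abundant peroxiredoxin of red cells, at 198, 169 and 148 TPM in the caudal and 140, 138 and 122 TPM in the yolk sac libraries, with no overlap (limma adjusted p = 0.549). Mylk3, Cpeb4 and Trim58 followed, with limma adjusted p of 0.55, 0.606 and 0.652 and with overlapping values.

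**Figure D5:**
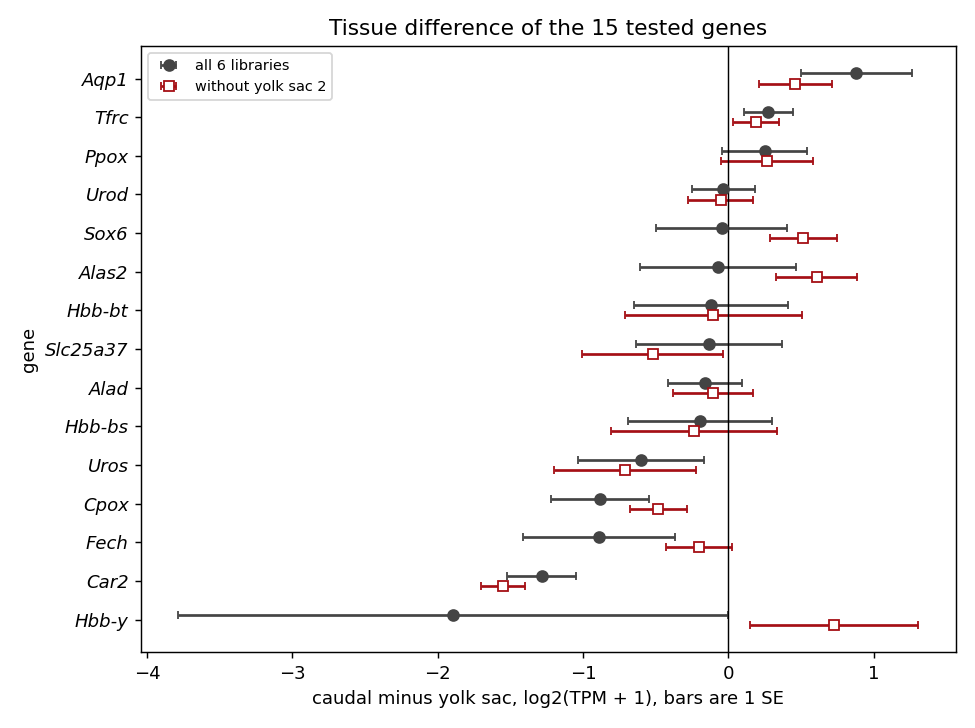
Difference between caudal and yolk sac cells on the log2(TPM + 1) scale for the 15 tested members, with bars of 1 SE, fitted with all 6 libraries (filled) and without yolk sac replicate 2 (open). Car2 is at -1.29 and -1.55, while Hbb-y, Alas2 and Sox6 change sign when that library is left out.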

How the data were processed

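Each deposited table lists, per the file headers, gene ID, gene name and TPM, a signal scaled within each library by the authors. Alignment with HISAT2 and quantification with StringTie on mm10 are named in the submitters' processing notes. Their versions, the annotation release and the use of strand were not given in the sources used here. Assembled loci without a name summed to 1000000 TPM in each table and were left out. Annotated genes came on top, with sums of 555230 to 684549 TPM. Their TPM was summed per symbol, and older or damaged symbols were restored by gene ID from GENCODE M21 (GRCm38), the source of coordinates and exon overlaps. The count of reads behind a value is unknown.

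Tissues were compared with limma 3.58.1 in R 4.3.3 on log2(TPM + 1), with a linear model of tissue, empirical Bayes with a mean-variance trend, two-sided tests and Benjamini-Hochberg adjustment. The same code was tested on simulated data. Promoter windows are from RefSeq (GRCm38.p6). Transcripts were aligned with Biopython 1.88. The members and gene lists were chosen with earlier results of these data known. All members are named, and of the other lists at most 4 genes by smallest p, apart from those said to be picked after their values were seen. Alternatives were other pseudocounts, filters and scalings, the replicate number as a block, and leaving out each library. Leaving out yolk sac replicates 1 and 2 together was added after seeing the data.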

Additional observations from a re-analysis of the deposited data

How the results depend on the processing

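Leaving out yolk sac replicate 2 brought the members passing as higher in the yolk sac from 0 to 1, Car2, and in the other single-library omissions the count was 0. No member passed under another alternative, and none passed as higher in the caudal cells. Over all genes, 57 passed as higher in the caudal cells and 6 in the yolk sac. These counts were 37 and 2 with a pseudocount of 5, 8 and 0 among genes whose mean reached 10 TPM, 0 and 0 with no filter (2547 genes at an unadjusted p under 0.05 by limma), and 13 and 0 without yolk sac replicates 1 and 2 together. Leaving out 1 library gave 2 to 55 and 0 to 6. With the replicate number as a block they were 0 and 0 by limma (1611 genes at an unadjusted p under 0.05). Same-numbered libraries did not deviate together (correlations of 0.02, -0.02 and -0.003), and not every library correlated best with its own number. No pairing was seen, but such correlations cannot show whether same-numbered libraries came from the same embryos. The class of yolk sac replicate 2 held 8 members with a gap of 1 and 7 after rescaling of the annotated genes. The shared class held 14 members at a minimum of 1 TPM and 4 at 10 TPM. Direction held in every alternative for 6 of 15 tested members (Cpox, Ppox, Fech, Tfrc, Aqp1 and Car2). The other 9 were not called. Leaving out 1 library gave differences of -3.39 to 0.73 for Hbb-y, -0.71 to 0.24 for Hbb-bt, -0.78 to 0.13 for Hbb-bs, -0.51 to 0.61 for Alas2, -0.38 to 0.021 for Alad, -0.15 to 0.10 for Urod, -0.52 to 0.39 for Slc25a37 and -0.33 to 0.52 for Sox6. Without yolk sac replicates 1 and 2 together, signs turned for Hbb-y (0.36), Alas2 (0.82), Uros (0.21), Urod (0.19) and Sox6 (0.51), and with a pseudocount of 0.1 for Sox6 (0.012). For changes in counts other than those from fewer libraries or other sets of genes, the cause was not tested.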
